A study of Mus musculus with 4 samples.

Results

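The respiratory chain of the mitochondrial inner membrane passes electrons from nutrients to oxygen and uses the energy released to make ATP. Complex I (NADH dehydrogenase) and complex II (succinate dehydrogenase) take up electrons, complex III (the cytochrome bc1 complex) hands them to cytochrome c, complex IV (cytochrome c oxidase) gives them to oxygen, and complex V (ATP synthase) turns the resulting proton gradient into ATP. Most subunits are encoded in the nucleus and imported into mitochondria, while a small core set is encoded by mitochondrial DNA. Naive embryonic stem cells are known to use respiration as well as glycolysis.

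The genes described here are the nuclear genes for subunits of these complexes. They were chosen by symbol alone, as protein-coding genes whose names begin with Nduf followed by a, b, c, s or v, with Uqcr, with Cox4 to Cox8 or with Atp5, plus Sdha, Sdhb, Sdhc and Sdhd. The annotation holds 92 such entries, and 86 of them were among the 14533 genes of the expression table. All 86 passed the filter on low values, so that no member was lost to it. The entries without a row in the table were Cox4i2, Cox6a2, Cox8b, Cox8c, Atp5l-ps1 and a second entry for Ndufb8. By complex there were 38 subunit genes for complex I, 4 for complex II, 8 for complex III, 14 for complex IV and 16 for complex V. The symbol rule also took in 5 genes that are not subunits, namely the assembly factors Ndufaf1, Ndufaf2, Ndufaf3 and Ndufaf4 and the related gene Atp5sl, and it took in Cox4nb, whose protein belongs to a complex of the endoplasmic reticulum. These 6 genes are described apart.

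The RNA came from embryonic stem cells (ESCs) of the mouse, adapted for over 20 days to either of 2 media and sorted by cell cycle phase. Serum ESCs were grown with fetal calf serum and the cytokine LIF. 2i ESCs were grown serum-free with LIF, the GSK3 inhibitor CHIR99021 and the MEK inhibitor PD0325901. Each group had 2 libraries, called serum replicates 1 and 2 and 2i replicates 1 and 2. Per the study's methods, cells were sorted with transfected FUCCI reporters, fluorescent proteins that mark cell cycle phases and that both groups would share. The sample labels give late G1-phase and no cell line, genotype or sex, whereas the series text speaks of early G1-phase. Values are normalised read counts, which are gene counts divided by a size factor for each library.

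The libraries held between 18939401 and 26570098 reads over the table. Protein-coding genes took 46.9% of them in serum replicate 1, 76.3% in serum replicate 2, 57.8% in 2i replicate 1 and 66.3% in 2i replicate 2. Of 9 pluripotency markers 8 were in the table, with summed values from 44214 to 55803 in the 4 libraries. Single markers differed more than their sum. In 2i replicate 2 Pou5f1 was at 20050 and Utf1 at 128, while elsewhere Pou5f1 ranged from 8452 to 9858 and Utf1 from 576 to 828. Nanog and Klf4 were higher in both 2i libraries, Sall4 was higher in both serum libraries, and the remaining pluripotency markers overlapped. Of 8 fibroblast markers, which would mark feeder cells, only Col1a1 and Thy1 were in the table, and their sum ranged from 58.2 to 230.1. Of 8 primitive endoderm markers 5 were in the table, with sums of 807 and 1600 under serum against 1101 and 758 under 2i, most of it from Lamb1. The endoderm factors among them were low but higher in both 2i libraries, with Gata4 at 13 and 42.8 under serum against 152 and 169 under 2i, Gata6 at 5.0 and 16.5 against 87.2 and 27.2, and Sox17 at 7.0 and 7.78 against 33.2 and 33.0. Gata4 and Gata6 reached a mean of 50, the limit of the filter on low values, only under 2i, and Sox17 reached it in neither medium. The study also asked for 50 reads in either medium, so genes low in serum could enter through 2i alone. The remaining primitive endoderm markers overlapped between the media. Lamb1 had 735 and 1491 under serum against 769 and 502 under 2i, and Pdgfra 47.0 and 41.8 against 60.2 and 27.2. The part of these markers in the results was not tested. Of 6 markers of primed or differentiating cells 4 were in the table, with sums of 410.2 and 335 under serum against 299 and 506 under 2i. In RNA from many sorted cells together, fewer cells that express a gene and less RNA per cell cannot be told apart.

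The first question was whether the genes of any complex differ in level between serum and 2i ESCs. Most subunit genes had a higher mean log2 value in 2i ESCs, but none of the 86 members passed the test. The limma fit covered 13005 genes, and a call needed both an adjusted p under 0.05 and a difference of over 2-fold. No member was called in either direction, against 0.0% of all genes called higher in serum and 0.0154% called higher in 2i. The smallest adjusted p of a member was 0.753. At an unadjusted p under 0.05 there was 1 member higher in 2i, Cox7a1, and 1 higher in serum, Cox4nb, where 3.0% and 2.97% of all genes lay. The quasi-likelihood test of edgeR on whole reads called 0 members, with 4 at an unadjusted p under 0.05, where 6.05% of all genes lay. DESeq2 called 1 member, Cox7b2, higher in 2i. Of all genes it called 1.37% higher in 2i and 0.561% higher in serum, 1.93% together. At an unadjusted p under 0.05 DESeq2 had 11 members, where 13.2% of all genes lay.

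The fold changes are given as log2 of serum over 2i, so that a negative value is a higher level in 2i. The median over the 86 members was -0.41, and 67 of them lay below 0. Over all genes tested the median was 0.0047, and 49.7% of genes lay below 0, or 49.0% of protein-coding genes. Among subunit genes alone 66 of 80 lay below 0. By complex the median was -0.46 for complex I, -0.27 for complex II, -0.19 for complex III, -0.69 for complex IV and -0.36 for complex V. Complex IV was the complex in which every measured subunit gene, 14 of 14, lay below 0, but not in every setting. With edgeR, with DESeq2 and with a correction for GC content and length the count was 13 of 14. The 14 include Cox7b2, which passed the filter only through its 2i values, so that its direction was fixed in advance. They also include Cox7a2l, known as a factor that joins complexes III and IV. With a filter at a mean of at least 200, which left out Cox7b2, 13 genes lay below 0 and 0 above, with a median of -0.59. Cox7c was at -0.12 with a standard error of 1.44. Summed with its pseudogene copies, which are described below, it was at 0.34 with a standard error of 0.62. For the other complexes the counts were 31 of 38, 3 of 4, 6 of 8 and 12 of 16. In 18 members both 2i values were above both serum values, and in 8 members both serum values were above both 2i values. Over all genes tested these patterns were seen in 19.4% and 20.5% of genes, and over protein-coding genes in 19.6% and 21.4%.

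**Figure D1:**
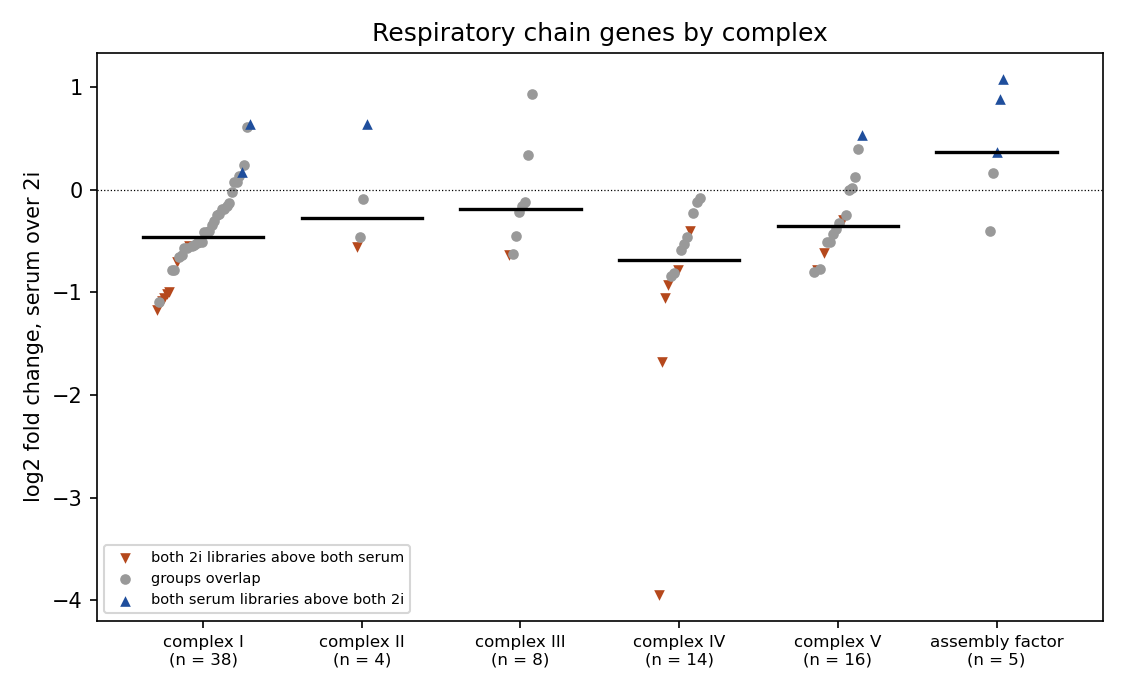
Log2 fold change (serum over 2i, vertical axis) of each respiratory chain gene by complex, with the number of genes under each name. Bars are medians, which run from -0.69 for complex IV to 0.36 for the assembly factors, and the symbol shapes show whether the 2 libraries of a medium all lay above those of the other.

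This shift rested largely on 2i replicate 2. The 86 members took 1.36% of the protein-coding reads in serum replicate 1, 1.14% in serum replicate 2 and 1.30% in 2i replicate 1, but 2.05% in 2i replicate 2. The first 3 libraries were thus close together and the last stood above them. Between the 2i replicates 66 of 86 members were higher in replicate 2, with a median gap of 0.60 on the log2 scale, and 27 members differed over 2-fold between them, against 38.3% of all genes. Between the serum replicates 17 members differed over 2-fold, against 24.2% of all genes. Without 2i replicate 2 the median over the members was -0.045 and 44 of 86 lay below 0. In that fit complex IV kept a median of -0.40, with 11 of 14 below 0, while complex I was at -0.052, complex V at -0.021 and complex III at 0.063. Without serum replicate 2 the median over the members was -0.20, without serum replicate 1 it was -0.54, and without 2i replicate 1 it was -0.71. What sets 2i replicate 2 apart was not tested.

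**Figure D2:**
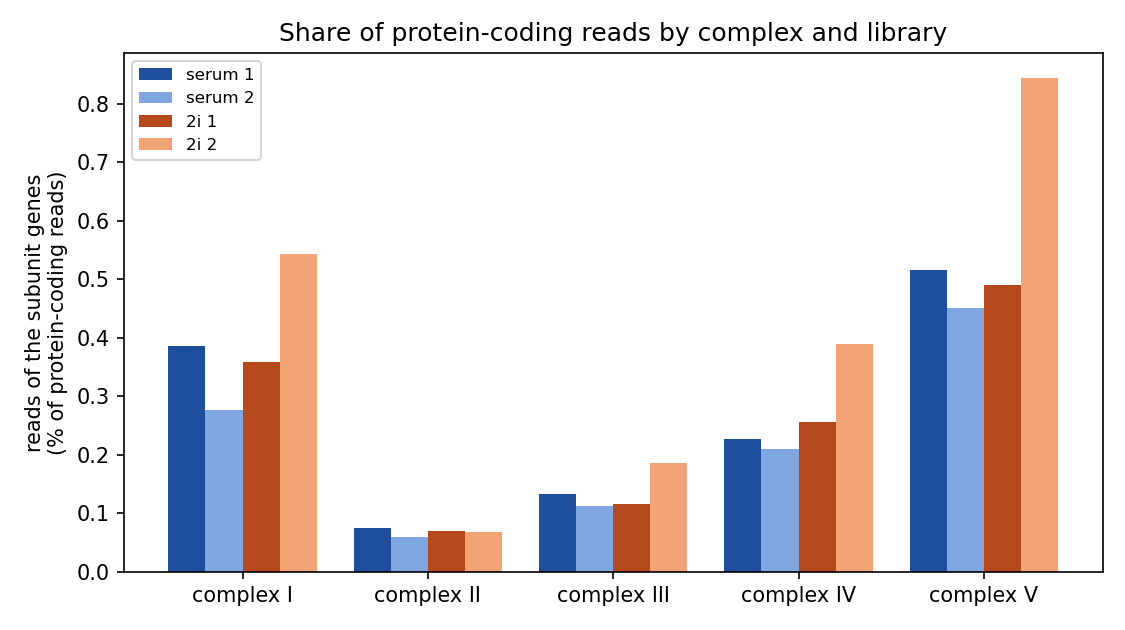
Reads of the subunit genes of each complex as a percentage of the protein-coding reads (vertical axis, from 0) in the 4 libraries, 1 bar a library. Complex V took 0.844% in 2i replicate 2 and between 0.452% and 0.516% in the other libraries, whereas complex II lay between 0.0599% and 0.0747% in all 4.

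Complex I genes were described first by the catalytic core, which binds NADH and carries the electrons over iron-sulphur clusters. Over the 7 core genes the median was -0.30, and 6 of them were below 0. Ndufs8, which holds iron-sulphur clusters, showed normalised read counts of 723 and 305 under serum against 799 and 735 under 2i, replicate 1 before replicate 2 here and below. Both 2i values were above both serum values, but serum replicate 1 lay close to them. Ndufs1, the largest core subunit, was the core gene that lay above 0, with 2256 and 3762 under serum against 1439 and 2524 under 2i. Its groups overlapped, and its log2 fold change was 0.61 with a standard error of 0.52.

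The 31 accessory complex I genes, whose proteins surround the core, had a median of -0.52. Ndufa12 had the lowest value of the complex, with normalised read counts of 678 and 919 under serum against 2434 and 1306 under 2i. Its log2 fold change was -1.17 with a standard error of 0.50 (adjusted p = 0.753). Ndufb2 had 723 and 591 under serum against 1131 and 1703 under 2i. Ndufa1 had 418 and 419 under serum against 927 and 774 under 2i. For Ndufb2 and Ndufa1, as for Ndufa12, the groups did not overlap, and the standard errors of their log2 fold changes of -1.08 and -1.02 were 0.45 and 0.43. Ndufa13 had 1325 and 1062 under serum against 1833 and 3306 under 2i, and Ndufa2 had 588 and 468 under serum against 876 and 1251 under 2i. Accessory genes that lay the other way were fewer. Ndufa8 had 657 and 742 under serum against 419 and 481 under 2i, again without overlap, with a log2 fold change of 0.64 and a standard error of 0.43. Ndufb10 was also higher in both serum libraries, by only 0.17 on the log2 scale.

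Ndufa4 is named for complex I, but its protein has since been placed in complex IV, and Ndufa4l2 is its paralogue. Ndufa4 showed normalised read counts of 2780 and 2318 under serum against 2253 and 6034 under 2i, so that only 2i replicate 2 stood out. Without that library its log2 fold change went from -0.54 to 0.17. Ndufa4l2 was low, with 27.0 and 15.6 under serum against 157 and 7.76 under 2i, and passed the filter only through its 2i mean of 82.3. Per transcript length it took 3.44% of the pair in 2i replicate 1 and at most 0.495% in the other libraries, so that its level followed 1 library and not the medium.

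Complex II links the citric acid cycle to the chain and has 4 subunits, all nuclear. The catalytic subunits lay in opposite directions. Sdha, the flavoprotein, showed normalised read counts of 3404 and 4093 under serum against 2692 and 2136 under 2i, with no overlap and a log2 fold change of 0.64 (standard error 0.45). Sdhb, the iron-sulphur subunit, had 1671 and 1328 under serum against 1804 and 2683 under 2i, also with no overlap and a log2 fold change of -0.56 (standard error 0.46). Neither passed the test, with adjusted p-values of 0.761 and 0.774. The membrane anchors Sdhc and Sdhd overlapped between the media. Sdhc had the highest level per length in the complex, with 1733 and 1135 under serum against 2569 and 1447 under 2i.

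In complex III the core proteins Uqcrc1 and Uqcrc2 had log2 fold changes of -0.21 and -0.12 and overlapping groups. Uqcrfs1, the Rieske iron-sulphur protein, showed normalised read counts of 1378 and 2075 under serum against 901 and 1988 under 2i. Uqcrh, the hinge protein and the gene with the highest level per length in the complex, had 2123 and 2097 under serum against 2733 and 3927 under 2i. It was the complex III gene without overlap, with a log2 fold change of -0.63 and a standard error of 0.45. Uqcrq, a small accessory subunit, had the highest log2 fold change of the complex, 0.93 with a standard error of 0.87. It had 2873 and 1008 under serum against 1978 and 404 under 2i, so that replicate 1 was above replicate 2 in both media. Without 2i replicate 2 its log2 fold change was -0.22.

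Complex IV genes encode the small subunits around the mitochondrially encoded catalytic core, and several exist in alternative forms. Cox7b2, a paralogue of Cox7b, had the lowest log2 fold change of all members. Its normalised read counts were 3.0 and 3.89 under serum, a few reads each, against 32.2 and 139 under 2i. Its log2 fold change was -3.94 with a standard error of 1.96 (limma, adjusted p = 0.753), and it was -3.12 with a pseudocount of 5, -2.76 after quantile normalization and -4.64 with DESeq2. DESeq2 gave an adjusted p of 0.0299. Cox7b2 passed the filter only through its 2i values, which fixed the direction in advance. Cox7b, the common form, had 2659 and 3444 under serum against 3441 and 6028 under 2i. Per transcript length Cox7b2 made up 0.208% of the pair under serum, in each library, against 1.70% and 4.08% under 2i.

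Cox7a1 is known as the heart and muscle form of subunit VIIa, Cox7a2 as the form of other tissues, and Cox7a2l as a factor that joins complexes III and IV. Cox7a1 showed normalised read counts of 141 and 75.8 under serum against 274 and 405 under 2i. Its log2 fold change was -1.68 with a standard error of 0.58 and an unadjusted p of 0.0257 (limma across all genes), which did not hold after adjustment. Cox7a2 had 1949 and 1822 under serum against 3335 and 3163 under 2i. Its replicates were close together in each medium, and its log2 fold change was -0.79 with a standard error of 0.42. Cox7a2l had 1353 and 1271 under serum against 1268 and 4367 under 2i, and stood out only in 2i replicate 2. Per transcript length Cox7a1 made up 9.17% and 5.48% of the set of 3 genes in serum and 11.9% in each 2i library.

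Cox6b1 and Cox8a also lay higher in both 2i libraries. Cox6b1, which sits on the outer face of the complex, showed normalised read counts of 1716 and 1235 under serum against 2644 and 3487 under 2i, a log2 fold change of -1.06 with a standard error of 0.45. Cox8a, the smallest subunit, had 3368 and 1913 under serum against 4765 and 4914 under 2i, with -0.93 and 0.49. Cox5a, a subunit on the matrix side, was at 2513 and 2381 under serum against 3729 and 2814 under 2i, with -0.40 and 0.44. Cox6b2, known from testis, parted mainly by replicate number. It had 413 and 61.2 under serum against 811 and 97.0 under 2i, so that replicate 1 was the higher library in both. Within each replicate number the 2i value was the higher, with a log2 fold change of -0.81 and a standard error of 1.24. The share of Cox6b2 in the pair per length was 18.1% and 21.9% in replicate 1 of serum and 2i, and 4.35% and 2.49% in replicate 2.

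Cox4i1, the subunit that regulates the enzyme through ATP, had the highest level per length in complex IV. It showed normalised read counts of 4998 and 3629 under serum against 4395 and 8654 under 2i. Cox6a1 and Cox5b overlapped between the media and had log2 fold changes of -0.23 and -0.079. The direction of Cox5b was positive in the count tests, at 0.012 with edgeR and 0.021 with DESeq2.

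**Figure D3:**
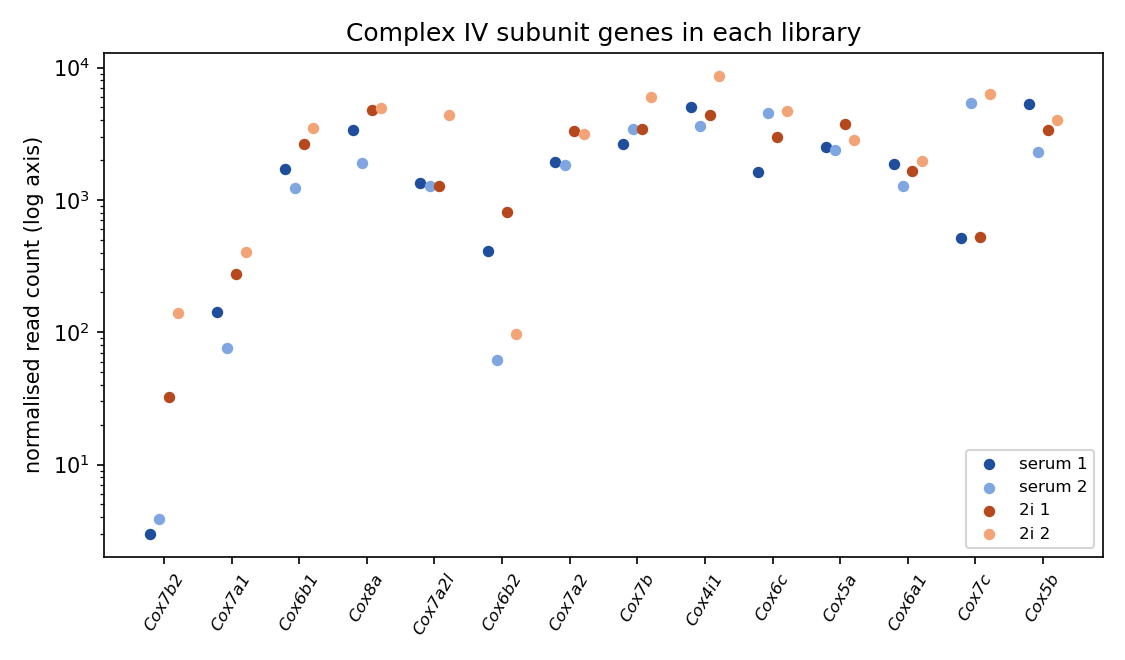
Normalised read counts (log axis) of the 14 complex IV subunit genes in each library, ordered from the lowest log2 fold change on the left. Cox7b2, Cox7a1, Cox6b1, Cox8a, Cox7a2 and Cox5a had both 2i libraries above both serum libraries, whereas the points of Cox6b2, Cox6c and Cox7c part by replicate number, as do those of Cox7b by a narrow margin. Cox7b2 passed the filter on low values only through its 2i values.

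In complex V, which makes ATP, Atp5b encodes the catalytic beta subunit of the F1 head and had the highest level per length of all members. It showed normalised read counts of 23128 and 24863 under serum against 23438 and 49672 under 2i. The first 3 libraries were within a narrow range and 2i replicate 2 stood above them. Atp5a1, the alpha subunit, was likewise highest in 2i replicate 2, with 12007 and 12030 under serum against 11537 and 19770 under 2i. Without 2i replicate 2 the log2 fold change of Atp5b was 0.033. Atp5j, a part of the peripheral stalk, was the complex V gene with both serum values above both 2i values, with 1460 and 1668 under serum against 1298 and 895 under 2i.

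The c-ring, which turns as protons pass, is encoded by Atp5g1, Atp5g2 and Atp5g3, whose mature proteins are alike. Atp5g1 showed normalised read counts of 1822 and 1525 under serum against 2332 and 3551 under 2i, with no overlap. Atp5g2 had 2179 and 1001 under serum against 2176 and 3048 under 2i. Atp5g3 had 3962 and 3257 under serum against 4249 and 3062 under 2i, and its log2 fold change of -0.006 differed in sign between settings. Per transcript length Atp5g3 made up 48.0% and 54.9% of the set in serum and 46.9% and 30.3% in 2i. Of the stretches of 43 bases in Atp5g2 transcripts 34.0% occur in no other gene, so that its value depends on how reads were divided.

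Reads of 43 bases cannot always be placed. For 12 members the table also held 13 genes at other loci, 11 of them pseudogenes, that contain at least 5% of the member's 43-base stretches. For Atp5l, the g subunit of complex V, the pseudogene Gm10221 on chr5:24087290-24087680 (mm9, minus strand) matched the Atp5l transcript letter for letter over its whole 391 bases. For Cox7c, a complex IV subunit, the pseudogene Gm12338 on chr11:75413265-75413456 (minus strand) matched over all its 192 bases, and Gm10012 on chr17:26038801-26039172 (plus strand) differed from the 189 coding bases at 2 positions. The first 90 coding bases are shown as an example of these matches. Positions are counted from the start codon, and capitals mark G30C, the difference between Cox7c and Gm10012.
Cox7c: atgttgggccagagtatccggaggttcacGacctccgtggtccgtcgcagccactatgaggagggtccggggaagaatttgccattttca
Gm12338: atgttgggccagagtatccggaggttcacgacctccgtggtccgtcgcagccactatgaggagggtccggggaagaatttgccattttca
Gm10012: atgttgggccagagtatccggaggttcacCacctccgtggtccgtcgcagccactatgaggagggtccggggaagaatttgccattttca
Atp5l and Gm10221: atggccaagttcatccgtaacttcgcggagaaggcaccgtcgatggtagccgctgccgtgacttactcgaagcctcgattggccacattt

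The values of these genes parted by replicate number. Atp5l showed normalised read counts of 883 and 1835 under serum against 522 and 3032 under 2i, while Gm10221 had 2595 and 0.972 under serum against 1831 and 8.73 under 2i. The member was low where the copy was high, in replicate 1 of both media. Their sums were 3479 and 1836 under serum against 2353 and 3041 under 2i, so that the ratio of the highest to the lowest library went from 5.81 to 1.89. Cox7c had 519 and 5438 under serum against 526 and 6322 under 2i, and the sums with its copies were 5090 and 5556 under serum against 2488 and 7122 under 2i. There the ratio went from 12.2 to 2.86.

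Among the 12 members with copies the ratio was smaller after summing in 10. The exceptions were Cox5b and Cox7a2l. Within the 10 the fall could be slight, as for Ndufb4, from 3.74 to 3.64, and Ndufab1, from 4.04 to 3.86. Sums with genes that are not copies were not compared. With copies added, the median over the 86 members was -0.41, and 0 were called. The gap between replicates 1 and 2 had the same sign in both media for 39 of 86 members, against 54.4% of all genes. Over 2-fold gaps of the same sign between replicates 1 and 2 in both media were seen in 7 members, namely Ndufa3, Ndufs5, Ndufs6, Uqcrq, Cox6b2, Cox7c and Atp5l, against 9.63% of all genes tested. Of these, Ndufs5, Cox7c and Atp5l have copies in the table. Ndufs6, Uqcrq and Cox6b2 were higher in replicate 1, as was Ndufa3. What sets the replicate numbers apart in those genes was not tested.

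**Figure D4:**
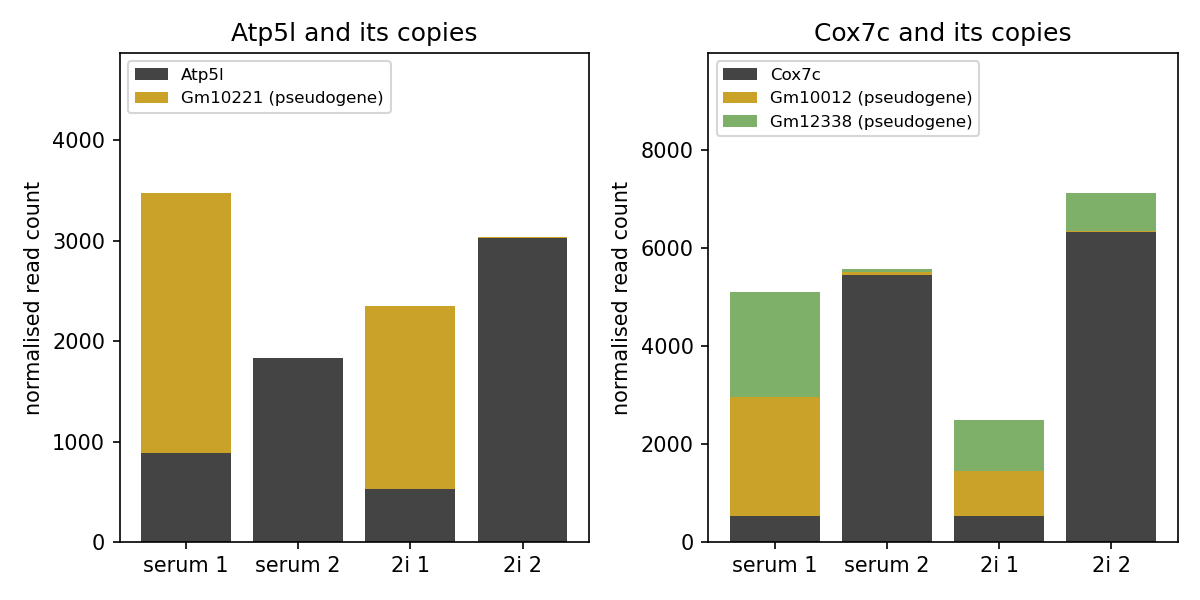
Normalised read counts (vertical axes, from 0) of Atp5l and Cox7c stacked with those of their pseudogene copies in the 4 libraries. In replicate 1 of both media most of each stack belonged to the copies, and in replicate 2 most belonged to the member, at 97.9% and 88.8% of the Cox7c stack.

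The 6 members that are not subunits lay mostly the other way. Ndufaf4, which helps to assemble complex I, showed normalised read counts of 725 and 1276 under serum against 442 and 469 under 2i, a log2 fold change of 1.08 with a standard error of 0.48 (adjusted p = 0.753). Ndufaf2 had 423 and 489 under serum against 246 and 245 under 2i, a log2 fold change of 0.89 with a standard error of 0.45. In both genes the serum values were above the 2i values. The median of the 5 genes was 0.36, and only Ndufaf3 lay below 0, at -0.41.

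Cox4nb was the member with the highest log2 fold change, 1.35 with a standard error of 0.54 and an unadjusted p of 0.0449 (limma across all genes). It showed normalised read counts of 1190 and 1772 under serum against 388 and 839 under 2i, with no overlap. Cox4nb lies head to head with Cox4i1 on chromosome 8. In mm9 it runs from 123177814 to 123192012 on the minus strand, and Cox4i1 runs from 123192190 to 123198109 on the plus strand. The 177 bases between the annotated starts, chr8:123192013-123192189 on the plus strand, are shown because both genes start from them. Their log2 fold changes had opposite signs, but that of Cox4i1 was only -0.53 with a standard error of 0.54. The groups of Cox4i1 overlapped, and its log2 fold change ranged from -1.02 to -0.046 without a library. Whether the genes respond differently was not tested. Capitals mark the letters GGGGCGGGG, known as a binding motif of SP1, on either strand, with overlapping matches joined.
Cox4nb to Cox4i1: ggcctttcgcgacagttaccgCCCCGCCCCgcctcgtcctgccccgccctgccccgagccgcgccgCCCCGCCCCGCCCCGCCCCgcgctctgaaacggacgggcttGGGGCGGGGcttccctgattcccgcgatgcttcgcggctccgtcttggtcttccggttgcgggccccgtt

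Promoter letters were also searched in the windows of 300 bases that RefSeq (GRCm38.p6) gives around gene starts, from 250 bases before to 50 after. A window was found for 70 of the 86 members. The letters of 4 motifs were searched separately on both strands, so that matches of different motifs may overlap. The letters GCATGCGC of NRF1, a known regulator of respiratory genes, were in the windows of 11 of 70 members (15.7%) and of 3.94% of 17492 protein-coding genes. These members were Ndufaf4, Ndufa11, Ndufa6, Ndufa8, Sdhb, Uqcr11, Uqcrc1, Cox6a1, Atp5g2, Atp5k and Atp5l. The letters AAGATGGCG of YY1 were found in 7 members and in 2.14% of all genes, CCGGAAGT of the ETS factors in 5 (7.14%) and in 5.69%, and GGGGCGGGG in 11 (15.7%) and in 17.3%. The median log2 fold change was -0.21 for the 11 members with the NRF1 letters and -0.43 for the remaining 59, and -0.25 with and -0.41 without those of YY1. The ETS and SP1 letters lay the other way, at -0.51 with and -0.41 without those of ETS and -0.56 with and -0.41 without those of SP1.

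Most members are short. The median log2 fold change was -0.51 for the 46 members with transcripts under 700 bases, -0.41 for the 34 from 700 to under 2000 bases and 0.37 for the 6 of 2000 bases or more. Over protein-coding genes tested the same classes had medians of -0.17, -0.054 and 0.10. Across the 86 members, which share libraries and are not independent, the log2 fold change and the log2 length had a Pearson r of 0.33 and a Spearman rho of 0.31, and across 11816 protein-coding genes the values were 0.11 and 0.13. With each library corrected for GC content and length, the median over the members was -0.34 and 63 of 86 lay below 0.

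**Figure D5:**
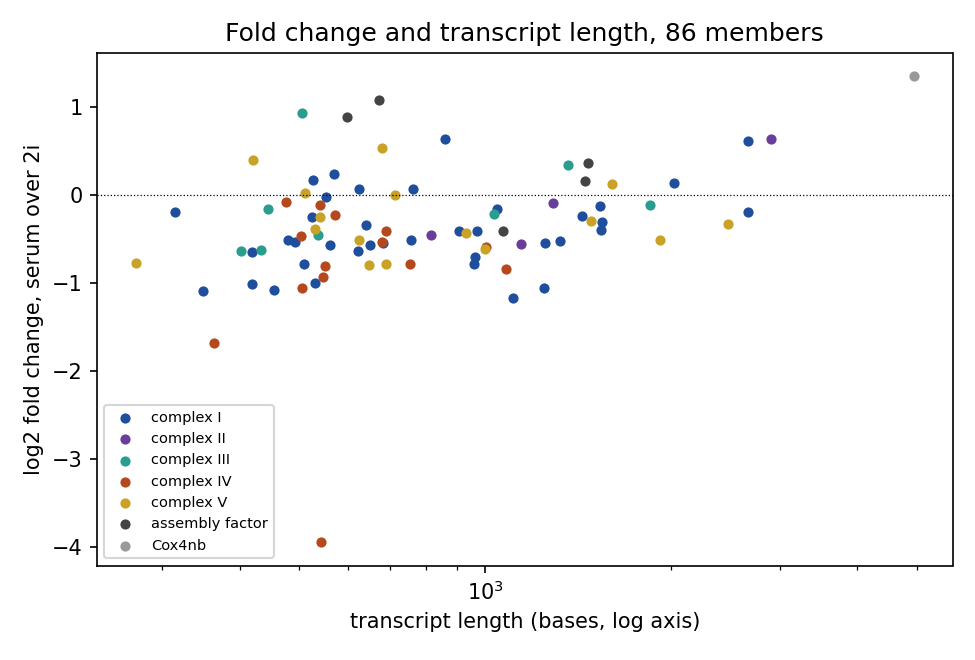
Log2 fold change (serum over 2i) against transcript length in bases (log axis) for the 86 members, coloured by class. Points below 0 are spread over all lengths under 2000 bases, and of the 6 members at or above 2000 bases 4 lie above 0.

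The rest of the pathway was set beside the subunits, from lists chosen with earlier results known. None of the genes in them was called in either direction by limma or edgeR. DESeq2 called 1, Myc, and so did limma with the replicate number as a block, but Myc passed the filter only through its serum values. The assembly factors of complex I had a median log2 fold change of 0.18 (10 genes), those of complex II -0.13 (3) and those of complex III -0.045 (3). Those of complex IV were at 0.059 (12) and those of complex V at 0.10 (4). The complex I list includes Ndufaf1, Ndufaf2, Ndufaf3 and Ndufaf4, members already described above, and is not independent of them. Carriers and subunits outside the symbol rule, cytochrome c among them, had a median of -0.28, with 6 of 7 below 0. Of the regulators of mitochondrial biogenesis 14 were tested, with a median of 0.77 and 11 above 0. The 3 below 0 were Polrmt at -0.99, Esrra at -0.86 and Tfb1m at -0.11. Esrra had 297 and 323 under serum against 429 and 735 under 2i, without overlap. Over all 13005 genes tested the median was 0.0047 and 6536 lay above 0. In the list of regulators 4 genes had an unadjusted limma p under 0.05, each higher in serum, where 2.97% of all genes lay. They were Myc, Tfb2m, which serves mitochondrial transcription, Gabpb1, a partner of the ETS factor Gabpa, and Peo1, the mitochondrial helicase. Tfb2m showed normalised read counts of 385 and 605 under serum against 68.5 and 160.1 under 2i, and Myc had 131 and 657 under serum against 7.27 and 4.85 under 2i. Of the 11 regulators above 0, Myc and Ppargc1b passed the filter only through serum, which fixed their direction in advance. Their serum means were 394 and 90.2, and their 2i means 6.06 and 42.1.

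The 13 subunits encoded by mitochondrial DNA lay opposite to the nuclear ones, with a median of 0.80 and 12 of 13 above 0 (a median of 0.16 without 2i replicate 2). In 2i replicate 2, where the nuclear members were high, 11 of the 13 mitochondrial ones were lower than in 2i replicate 1, with a median gap of -1.61 on the log2 scale. The exceptions were the abundant genes mt-Co1, with 72201 and 79569 in 2i replicates 1 and 2, and mt-Co3, with 35709 and 68296. For mt-Nd1 the values were 9872 and 11186 under serum against 6234 and 2405 under 2i.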

How the data were processed

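Sorted serum and 2i ESCs were sequenced with 2 libraries per group, 4 in all. Per the methods, ribosomal RNA was removed from total RNA, fragments were primed at random and single-end reads of 43 bases were aligned to mm9 with Bowtie, and MMSeq divided reads that fit several genes. The authors deposited scaled counts, a signal in which each library's counts are divided by its own DESeq2 size factor. Every deposited value was a whole multiple of 1 step per library (100.0% of values), so whole reads could be recovered for count tests. Members were found through GENCODE vM1 (NCBIM37, the sequence of mm9), which held 14462 of the 14533 genes.

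The 13005 genes whose mean reached 50 in either group were tested with limma 3.58.1 in R 4.3.3 on log2(value + 1), a scale that understates changes of low genes. Calls needed a Benjamini-Hochberg adjusted p under 0.05 and a log2 fold change beyond 1. edgeR 4.0.16, DESeq2 1.42.0, other pseudocounts, filters and scalings, a replicate block, a GC content and length correction and leaving out each library were alternatives. Data were simulated with every gene at the common biological coefficient of variation that edgeR estimated, 0.668. There 0 of 200 genes changed 4-fold were recovered and 69 of 200 changed 16-fold, with 2 false calls. At a coefficient of 0.1 all 200 changed 4-fold were recovered. Real genes differ in spread, so these counts do not give the power for the members. An exact permutation test of 2 against 2 libraries knows only 3 splits, with 0.333 as its smallest two-sided p, so none was used. The labels do not say how the replicates were separated, so p-values measure only the spread between these libraries.

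The members and lists were chosen with earlier results of these data known. Members named with all values were those with the highest level per length, the highest and the lowest fold change in each complex, forms of the same subunit and those at an unadjusted p under 0.05. Ndufs8, Ndufs1, Ndufb2, Ndufa1, Ndufa13, Ndufa2, Ndufb10, Uqcrc1, Uqcrc2, Uqcrfs1, Cox5a, Cox6c, Atp5a1, Ndufaf2, Ndufaf3, Ndufaf4, Sdhd, mt-Nd1, mt-Co1, mt-Co3, the members that part by replicate and those with copies were named after their values were seen. So were the regulators Polrmt, Esrra, Tfb1m and Ppargc1b. The promoter letters of NRF1 and YY1 were shortened after a search with longer forms had been seen.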

Additional observations from a re-analysis of the deposited data

How the results depend on the processing

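The number of members called was 0 under every alternative except DESeq2, which called 1. The number of all genes called was 2, and became 4 with a mean of at least 200, 1 without a variance trend, 1 with the GC content and length correction, 0 with edgeR, 251 with DESeq2 and 0 to 0 without a library. With the replicate number as a block it was 203, of which 0 were members, and with the block and the GC content and length correction 78. The replicate gaps of serum and 2i correlated at 0.48 over 13005 genes, but with 2 pairs the labels do not show that the numbers pair the samples. The block changed no call on a member.

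The median over the members ranged from -0.55 to -0.34 over the other settings and from -0.71 to -0.045 without a library. Upper quartile scaling moved the median of all genes from 0.0047 to -0.14 and that of the members to -0.55. By complex the ranges without a library were -0.70 to -0.052 for complex I, -0.51 to -0.014 for complex II, -0.71 to 0.063 for complex III, -0.97 to -0.40 for complex IV and -0.71 to -0.021 for complex V. For the assembly factors they were -0.14 to 0.45 (I), 0.012 to 0.31 (IV) and -0.15 to 0.26 (V), for carriers -0.79 to 0.084, for mitochondrially encoded subunits 0.16 to 1.84 and for biogenesis regulators 0.44 to 1.16. The median of the complex IV assembly factors was -0.087 with upper quartile scaling, -0.081 with edgeR and -0.067 with DESeq2, and that of the complex II assembly factors was -0.53 with the GC content and length correction, with and without the replicate block. The cause of these moves was not tested.

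The direction was reversed for Cox5b with the GC content and length correction (0.11, also with the block), edgeR (0.012) and DESeq2 (0.021), and for Atp5g3 with the GC content and length correction (0.0098, also with the block). Without a library it was reversed for Atp5g3 (-0.24 to 0.23), Cox6a1 (-0.50 to 0.047), Cox6b2 (-2.34 to 0.71), Cox5b (-0.68 to 0.52), Ndufa4l2 (-2.87 to 1.30), Cox7a2l (-1.73 to 0.049), Atp5b (-1.05 to 0.033), Ndufa4 (-1.25 to 0.17) and Uqcrq (-0.22 to 2.07). Summing members with their copies reversed the direction of Cox7c (0.34), Ndufab1 (0.028) and Atp5l (-0.082). Summing members with their copies, and keeping the 67 members with at least 90% of their 43-base stretches to themselves (median -0.41), were chosen after seeing the data.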
